A study of Danio rerio with 6 samples.

Results

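Embryonic globin genes and enzymes that build or clear heme were followed over 6 zebrafish arrays, probe by probe. The set holds the alpha-type embryonic globins hbae1.1 and hbae3, the beta-type embryonic globin hbbe1, the heme synthesis enzymes alas2 and urod, and the heme breakdown enzyme blvrb, which were chosen by the RefSeq identifier or description that the array annotation gives each probe. The genes were picked with earlier results of these data known, so shares of all probes given below are a background and not a test. These 6 genes, of 5022 named on the array, are read by 7 of its 14067 zebrafish probes, 2 of them for hbae3 and 1 for each other gene. Of these 7 probes, 5 gave a signal above background on all 6 arrays, alas2 did so on 5 and blvrb on 3.

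The study set RNA of whole embryos beside RNA of GFP-positive cells collected by flow sorting, to describe expression in early vascular and blood-forming cells. Each condition had 1 Cy3 array, and all RNA was amplified in 2 rounds before labelling. Whole embryos were taken at 18 and 24 hours post fertilisation (hpf), and the labels name no line for them. GFP-positive cells came from Tg(Fli1:EGFP) embryos at 18, 24 and 28 hpf and from Tg(Flk:GRCFP) embryos, in an untreated state throughout. In the Fli1 line the reporter follows fli1, a transcription factor gene of vessels and blood that some neural crest cells also express, so that a sort by GFP is not a sort for red cell precursors. The Flk line is named for a receptor gene of the vascular endothelium. The stage of this sample is 18 hpf by its title and by the design text but 24 hpf by its description, so both stages are used below. The extraction protocol names the Fli1 line alone, and the source label reads whole larvae for every sample.

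Hemoglobin is a tetramer of alpha-type and beta-type globin chains, each of which holds a heme group. In the zebrafish embryo the first red cells form in the intermediate cell mass of the trunk, enter the circulation about a day after fertilisation and make embryonic globins, which adult globins replace later. Heme is made in a chain of steps that opens with delta-aminolevulinate synthase in the mitochondrion. The red cell form of that enzyme is alas2, and zebrafish without it (the sauternes mutants) have pale blood. In the middle of the chain uroporphyrinogen decarboxylase, urod, trims the side chains of the porphyrin ring, and its loss (the yquem mutants) leaves embryos with fluorescent, light-sensitive blood. Ferrochelatase, fech, closes the chain by inserting iron. Biliverdin reductase B, blvrb, acts after heme has been opened into biliverdin, and in humans it is also known as a flavin reductase of red cells.

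Globin genes of the embryo lie in an interleaved row. On the reference assembly GRCz12tu, used here for names and gene order, the order is hbbe1.1, hbae1.1, hbbe1.2, hbae1.2, hbbe1.3, hbae1.3 and hbae3. The probe annotated as hbbe1 corresponds to hbbe1.1 by its description, and none of hbae1.2, hbae1.3, hbbe1.2 and hbbe1.3 has a named probe on the array. These copies are nearly identical in sequence, so signal of the hbae1.1 and hbbe1 probes may include them. Probe sequences were not used here.

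Signals below are log2 intensities after background correction and quantile normalization, in which 1 unit is a doubling. Levels of different probes are not compared with each other, except that summed levels of marker lists add them, so that bright probes weigh most there. A spot counted as above background where it exceeded the 95th percentile of 173 Arabidopsis control spots on its array. Between 25.6% and 40.4% of 13999 probes did so, with the lowest share on the Fli1 array of 18 hpf and the highest on the Flk array. The spread of the log2 difference over the control spots, 0.34 to 0.46 (SD) for any pair of arrays, served as a measure of array error. It does not cover the difference between separate batches of embryos or sorts, for which there is no replicate. Because the same control spots set the background limit, it describes dim spots and may not hold for bright ones. The choice of scaling is not covered by it either. In these bulk samples fewer cells of a type and less RNA per cell cannot be told apart.

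The 3 alpha globin probes gave the same order of arrays. The hbae1.1 signal was 8.60 in whole embryos at 18 hpf and 12.75 at 24 hpf, 12.88, 14.93 and 15.43 in Fli1 cells at 18, 24 and 28 hpf, and 11.50 in Flk cells. The brighter hbae3 probe gave 8.83 and 12.17 in whole embryos, 12.69, 14.78 and 15.33 in Fli1 cells in order of stage, and 11.20 in Flk cells. The dimmer hbae3 probe gave 8.16 and 10.81 in whole embryos, 11.66, 13.75 and 15.09 in Fli1 cells, and 9.98 in Flk cells. On each probe the whole embryo of 18 hpf was lowest, followed by Flk cells, whole embryos of 24 hpf and then the Fli1 arrays by stage. Neighbours in that order lay further apart than the control-spot SD of their pair, except Fli1 cells at 18 hpf and whole embryos at 24 hpf on the hbae1.1 probe, which differed by 0.13 against an SD of 0.46. Across the 6 arrays the Pearson correlation between alpha globin probes was 0.970 to 0.995, as a description of arrays that share stages and lines. The step from Fli1 24 to 28 hpf in this order depends on the scaling, as described with the stages below. So does the place of Fli1 cells of 18 hpf. With the authors' scaled values they lay below whole embryos of 24 hpf on all 3 probes. These values were 17.3 and 54.1 for hbae1.1, 15.0 and 34.4 on the brighter hbae3 probe, and 8.09 and 12.2 on the dimmer.

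The beta globin hbbe1 was bright enough to saturate the scanner. Its signal was 10.32 in whole embryos at 18 hpf and 15.07 at 24 hpf, 14.82, 15.40 and 16 in Fli1 cells at 18, 24 and 28 hpf, and 13.40 in Flk cells. At scan setting 55, which was used throughout, the spot was saturated on the whole-embryo array of 24 hpf and on the Fli1 arrays of 24 and 28 hpf, so the order among these 3 arrays cannot be read from it. At the weaker scan setting 45 no array was saturated, and the background-subtracted intensity was 816 and 22293 in whole embryos at 18 and 24 hpf, 3184, 38396 and 39504 in Fli1 cells in order of stage, and 3379 in Flk cells. There the Fli1 arrays of 24 and 28 hpf were the brightest and the whole embryo of 18 hpf the dimmest. These intensities are not scaled between arrays.

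The authors' deposited table joins the scan settings into 1 intensity, and hbbe1 was joined unevenly. Over spots bright at both settings, setting 55 gave 3.18 to 3.32 times the intensity of setting 45. Multiplied by this ratio, the setting 45 intensity of hbbe1 came to 127475 and 125624 on the Fli1 arrays of 24 and 28 hpf, beside joined values of 127105 and 126970. On the whole-embryo array of 24 hpf it came to 73121, while the joined value was 65452, equal to the saturated reading at setting 55. The joined and scaled values of hbbe1 therefore hold a capped reading for that 1 array, and folds of hbbe1 between arrays that involve it are given from setting 45, beside values from setting 55 that are named as bounds or as saturated.

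**Figure D1:**
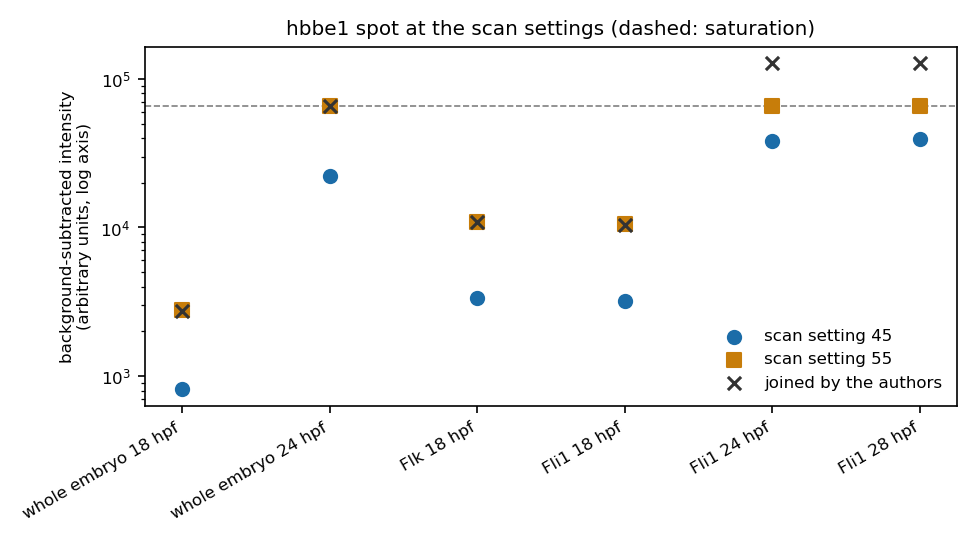
Background-subtracted intensity of the hbbe1 spot on each of the 6 arrays (log axis, arbitrary units), at scan settings 45 and 55 and as joined by the authors. On the whole-embryo array of 24 hpf the joined value of 65452 sits at the saturation line, while on the Fli1 arrays of 24 and 28 hpf the joined values of 127105 and 126970 lie above it.

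The heme synthesis enzymes had a different order from each other. The alas2 signal was 7.52 in whole embryos at 18 hpf, where it was not above background, and 9.70 at 24 hpf, 10.57, 11.73 and 13.11 in Fli1 cells at 18, 24 and 28 hpf, and 10.09 in Flk cells. All 4 sorted arrays were thus above both whole-embryo arrays on this probe, Flk cells by 0.39 above whole embryos of 24 hpf against a control-spot SD of 0.38. On the authors' scale Fli1 cells of 18 hpf (4.04) lay below whole embryos of 24 hpf (4.87). The urod signal was 8.58 and 10.14 in whole embryos, 11.48, 12.46 and 10.97 in Fli1 cells in order of stage, and 10.64 in Flk cells. Here too all sorted arrays were above both whole-embryo arrays, although with the authors' scaled values Fli1 cells at 28 hpf (6.17) lay below whole embryos of 24 hpf (6.90). The highest array was Fli1 at 24 hpf under each of the 3 scalings. Fli1 cells at 28 hpf and Flk cells differed on urod by 0.32, within the SD of 0.34. Among pairs of member probes, urod had the lowest correlation over the 6 arrays, from 0.650 with blvrb to 0.833 with hbae1.1.

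The breakdown enzyme blvrb was above background on 3 arrays. Its signal was 9.0 in whole embryos at 24 hpf and 10.07 and 10.46 in Fli1 cells at 24 and 28 hpf. In whole embryos at 18 hpf (6.18), Fli1 cells at 18 hpf (7.56) and Flk cells (7.17) it was not above background, so the order of those 3 arrays has no meaning.

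**Figure D2:**
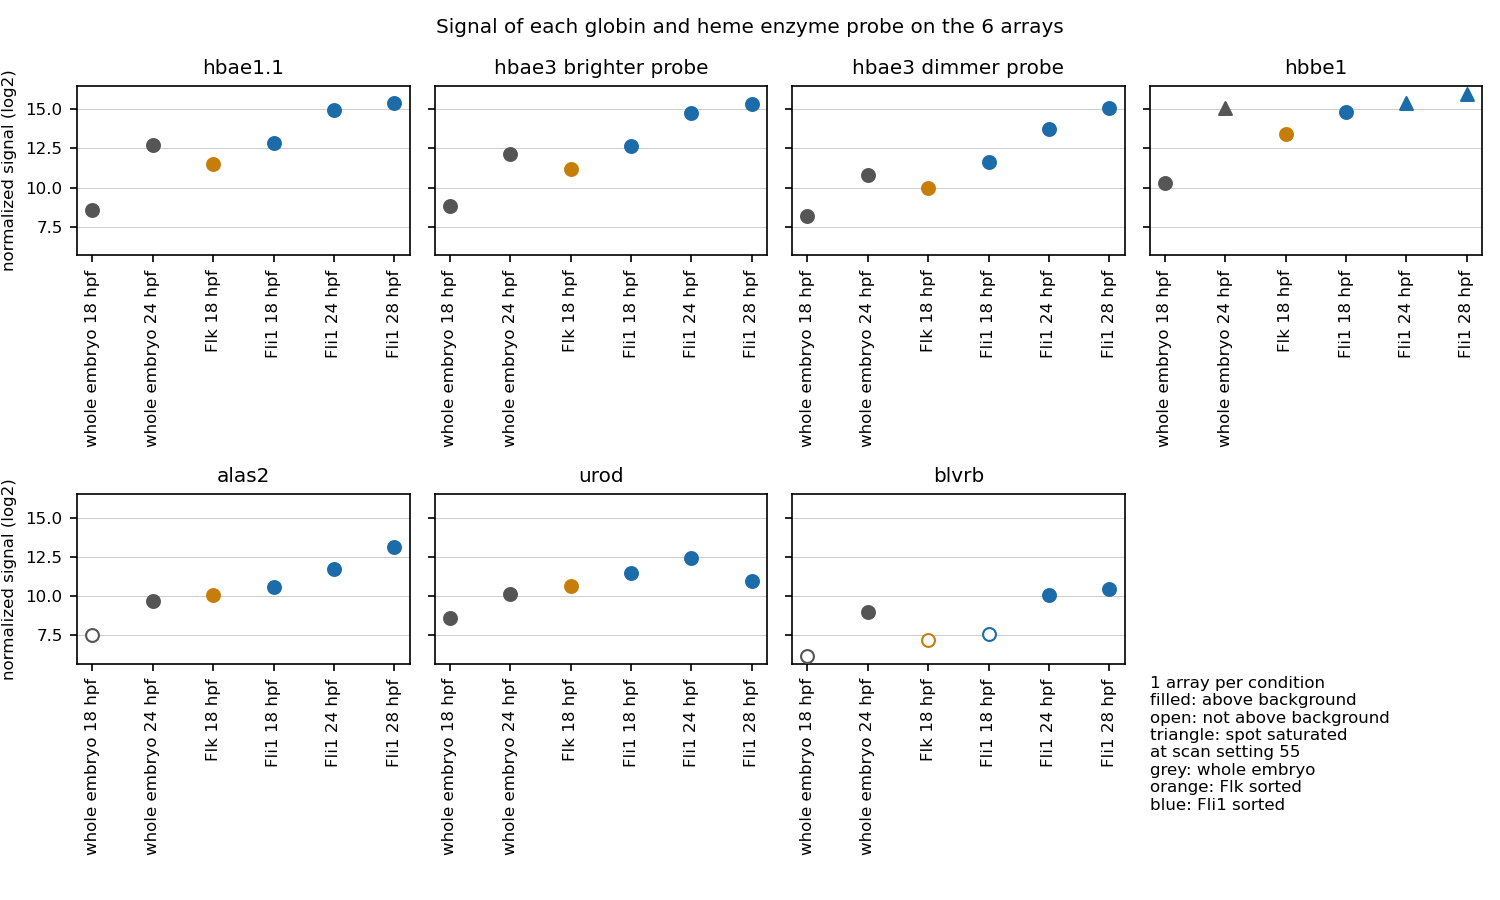
Normalized log2 signal of each of the 7 probes on the 6 arrays, 1 array per condition, with grey for whole embryos, orange for Flk cells and blue for Fli1 cells, open circles for spots not above background and triangles for spots saturated at scan setting 55. The whole embryo of 18 hpf is the lowest array on every probe, and alas2 is below background there. On blvrb the 3 lowest arrays are all below background, so their order has no meaning. Under this normalization Fli1 cells at 28 hpf are the highest on hbae1.1, both hbae3 probes, alas2 and blvrb, while urod peaks at 24 hpf with 12.46 and hbbe1 is saturated on its 3 brightest arrays. Under the other scalings hbae1.1, both hbae3 probes and blvrb are no higher at 28 than at 24 hpf.

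At 18 hpf the globins and the heme synthesis enzymes stood higher in Fli1 cells than in the whole embryo. Of the 7 probes 6 were 2-fold or more higher and none was lower, where 9.4% of the 7565 probes analysed were higher and 13.4% lower. The fold was 19.5 for hbae1.1, 14.5 and 11.3 on the brighter and dimmer hbae3 probes, 22.8 for hbbe1, at least 5.81 for alas2 and 7.5 for urod. For blvrb both arrays were below background and no fold is given. The median log2 difference was 3.50 over the 7 probes and -0.01 over all probes analysed. These values were smaller when each array was scaled to its 75th percentile, where the log2 difference was 3.39 for hbae1.1, 2.87 and 2.75 for hbae3, 3.25 for hbbe1 and 2.11 for urod, all still above 2-fold. The same held with the authors' scaled values, at 3.19 for hbae1.1, 2.74 and 2.85 for hbae3, 3.05 for hbbe1 and 1.99 for urod, although the median of all probes was then -0.24. The 3 scalings gave 711 higher and 1016 lower probes, 392 and 1488, and 297 and 1899 in that order.

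At 24 hpf the globins were again higher in Fli1 cells. As before, 6 of the 7 probes were 2-fold higher and none lower, where 4.06% of all probes were higher and 8.62% lower. The fold was 4.53 for hbae1.1, 6.1 and 7.68 on the hbae3 probes, 4.06 for alas2, 5 for urod and 2.09 for blvrb. The 7th probe, hbbe1, was saturated on both arrays at scan setting 55 and was 3.27-fold higher at setting 45. The median log2 difference was 2.18 over the 7 probes and 0.09 over all. Under the other scalings these differences moved little, to between 1.95 for alas2 and 2.86 for the dimmer hbae3 probe among the probes of hbae1.1, hbae3, alas2 and urod. The blvrb value lay at the 2-fold limit and crossed it, with log2 differences of 0.95 on the 75th percentile scale and 0.89 on the authors' scale, and 1.74-fold at scan setting 45. The 3 scalings split all probes into 307 higher and 652 lower, 297 and 822, and 289 and 1061.

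**Figure D3:**
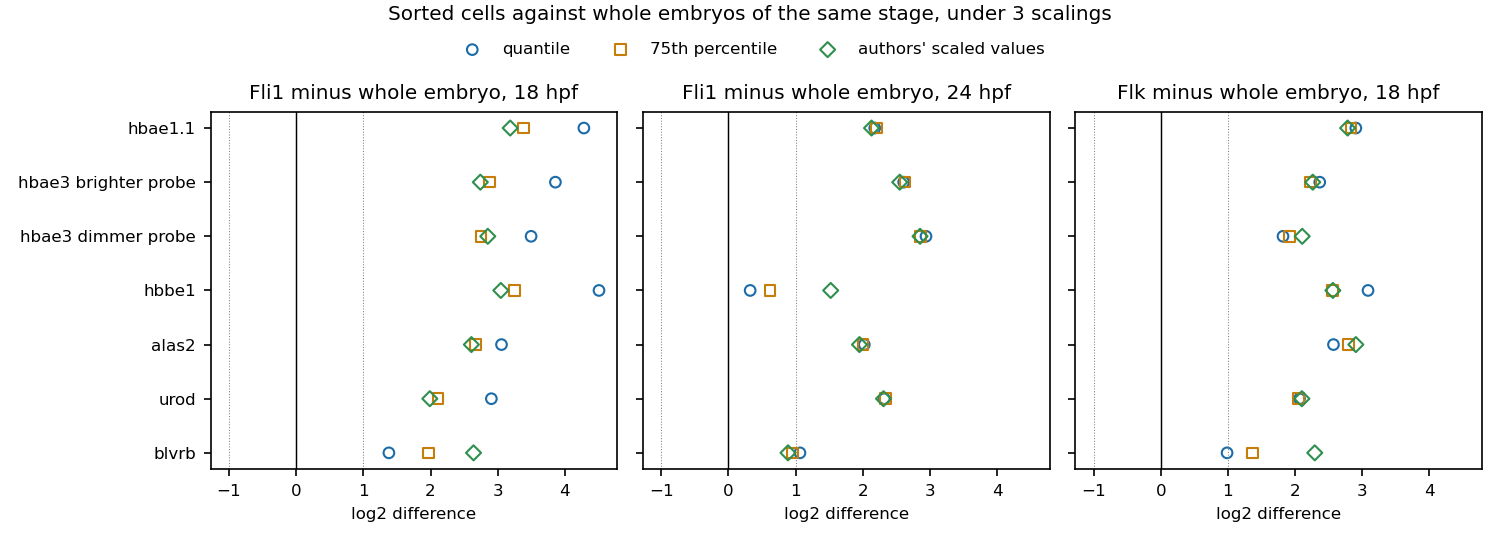
Log2 difference of sorted cells minus whole embryos on each of the 7 probes for Fli1 cells at 18 hpf, Fli1 cells at 24 hpf and Flk cells against 18 hpf, under quantile normalization (circles), 75th percentile scaling (squares) and the authors' scaled values (diamonds), with dotted lines at 2-fold. Every point lies above 0. Those of alas2 at 18 hpf are differences from a whole embryo below background, and for blvrb at 18 hpf both arrays of each pair are below background. The quantile values at 18 hpf in Fli1 cells are the larger ones for the globins and urod. At 24 hpf hbbe1 is saturated on both arrays at scan setting 55, on which the circle and the square rest.

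In whole embryos every probe of the set was higher at 24 than at 18 hpf. All 7 were past 2-fold, where 6.58% of all probes were higher and 3.99% lower. Among the globins hbbe1 was at least 27-fold higher and 27.1-fold at scan setting 45, hbae1.1 17.8-fold and hbae3 10.1-fold and 6.28-fold. Among the enzymes urod was 2.96-fold higher, and alas2 and blvrb, both below background at 18 hpf, have only lower bounds of 3.18-fold and 1.96-fold. For blvrb the log2 difference of the signals was 2.82, which counted as past 2-fold, while the bound against the lowest measured signal stopped just short of it. The median was 2.82 over the 7 probes and -0.05 over all. The former is the blvrb difference itself and so rests on a spot below background at 18 hpf. Under the other scalings no globin probe changed sign or fell under 2-fold, nor did urod, and the split over all probes moved from 498 higher and 302 lower to 642 and 485 by the 75th percentile and to 692 and 580 on the authors' scale.

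In Fli1 cells most of the set was also higher at 24 than at 18 hpf. Of the 7 probes 5 were 2-fold higher and none lower, where 5.43% of all probes were higher and 3.62% lower. The fold was 4.14 for hbae1.1, 4.25 and 4.27 on the hbae3 probes, 2.22 for alas2 and at least 4.04 for blvrb. The urod difference was 1.97-fold, and hbbe1, saturated at 24 hpf, was 4-fold higher at scan setting 45. The scaling changed the size here, and the arrays differed in brightness, with a 99th percentile of intensity of 3039 at 18 hpf and 10112 at 24 hpf, whose part in these values was not tested. Under 75th percentile scaling the log2 difference of hbae1.1 was 3.63 in place of 2.05, that of hbae3 3.61 and 3.37 in place of 2.09 on both probes, and that of urod 2.13 in place of 0.98. On the authors' scale these were 3.78, 3.75, 3.45 and 2.30, with a median over all probes of 0.13. The 3 scalings split all probes into 411 higher and 274 lower, 743 and 131, and 885 and 131, in the same order.

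Set side by side, the log2 difference from 18 to 24 hpf was larger in whole embryos than in Fli1 cells for hbae1.1 (4.16 and 2.05 under quantile normalization, 4.83 and 3.78 with the authors' scaled values) and for hbbe1 (4.76 and 2.0 at scan setting 45). For alas2 no such comparison is given, because it was below background in whole embryos at 18 hpf. For urod the order turned with the scaling, from 1.56 in whole embryos and 0.98 in Fli1 cells to 1.98 and 2.30. The dimmer hbae3 probe gave 2.65 and 2.09 under quantile normalization and 3.45 on both sides with the authors' scaled values. With 1 array per condition these differences between differences could not be tested.

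From 24 to 28 hpf in Fli1 cells the enzymes parted. The urod signal was 2.82-fold lower at 28 hpf, a log2 difference of -1.49, and it was lower still under the other scalings, at -2.48 by the 75th percentile and -2.47 on the authors' scale. The alas2 signal was 2.61-fold higher and the dimmer hbae3 probe 2.52-fold higher, but under those scalings the alas2 differences were 0.06 and 0.07 and the hbae3 differences -0.01 and -0.00036. Of the 7 probes 2 were 2-fold higher and 1 lower under quantile normalization, where 7.36% of all probes were higher and 11.5% lower, and under both other scalings none was higher and 1 was lower. The hbae1.1 difference was 0.50, and -0.67 and -0.75 under the other scalings. The brighter hbae3 probe likewise turned from 0.55 to -0.66 and -0.67, so no direction can be given for the alpha globins over this step. For hbbe1 the difference at scan setting 45 was 1.45-fold, and for blvrb it was 1.31-fold. The split over all probes was 557 higher and 869 lower, and 223 and 1071 with 75th percentile scaling. The 99th percentile of intensity was 10112 at 24 hpf and 3357 at 28 hpf, and its part in these values was not tested.

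**Figure D4:**
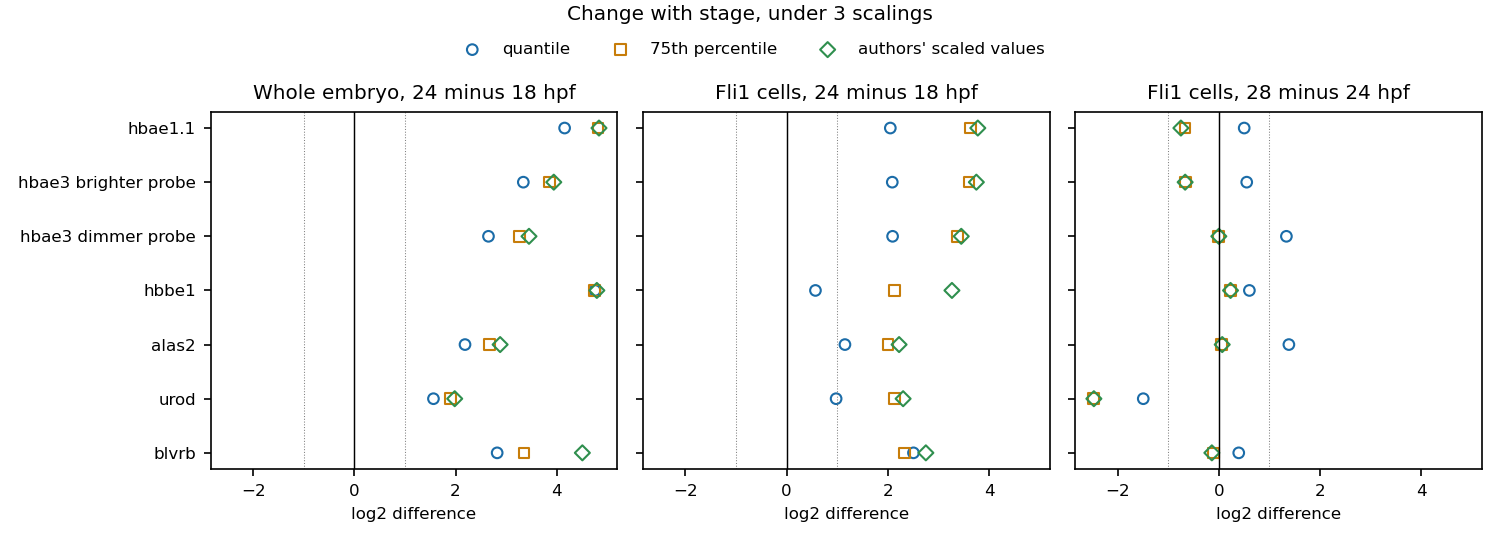
Log2 difference between stages on each of the 7 probes for whole embryos (24 minus 18 hpf), Fli1 cells (24 minus 18 hpf) and Fli1 cells (28 minus 24 hpf), under quantile normalization (circles), 75th percentile scaling (squares) and the authors' scaled values (diamonds), with dotted lines at 2-fold. From 18 to 24 hpf all points lie above 0, with alas2 in whole embryos and blvrb in both samples below background at 18 hpf, whereas from 24 to 28 hpf only urod is lower under each scaling, between -1.49 and -2.48, and hbae1.1, both hbae3 probes and blvrb lie above 0 by quantile and below 0 by the other scalings.

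Against whole embryos of 18 hpf, Flk cells too had higher globin and heme synthesis signals. Here 6 of the 7 probes were 2-fold higher and none lower, where 7.06% of all probes were higher and 6.95% lower. The fold was 7.49 for hbae1.1, 5.16 and 3.53 on the hbae3 probes, 8.5 for hbbe1, at least 4.15 for alas2 and 4.19 for urod, while blvrb was below background on both arrays. The median log2 difference was 2.37 over the 7 probes and 0.04 over all. Under quantile normalization against whole embryos of 24 hpf, the stage in the sample description, none of the 7 probes was 2-fold higher and 3 were lower. Among all probes 5.78% were higher and 6.91% lower. These 3 were hbae1.1 at 2.38-fold, hbbe1 at 3.47-fold at scan setting 45 and blvrb at least 2.39-fold, while alas2 and urod were 1.31-fold and 1.42-fold higher. Under the other scalings both hbae3 probes were past 2-fold lower too, at -1.62 and -1.36 by the 75th percentile and -1.68 and -1.34 on the authors' scale (log2). The alas2 and urod differences were then 0.13 and 0.15, and 0.02 and 0.12, in the same order of scalings. The direction of the globins in Flk cells relative to whole embryos therefore depends on which label of its stage is taken. The split over all probes against 18 hpf was 534 higher and 526 lower by quantiles, 531 and 946 by the 75th percentile and 580 and 1115 on the authors' scale.

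Against Fli1 cells of 18 hpf the Flk globin signals were lower by an amount that depended on the scaling. Under quantile normalization the globin probes were lower by 2.6-fold for hbae1.1, 2.81-fold and 3.2-fold for hbae3 and 2.68-fold for hbbe1, which made 4 of 7 where 3.38% of all probes were lower and 5.63% higher. Under both other scalings none of the 7 was past 2-fold, and the globin log2 differences lay between -0.84 and -0.40. On the authors' scale the median of all probes was itself 0.21. The alas2 difference was -0.48 under quantile normalization and 0.30 with the authors' scaled values, and that of urod was -0.84 and 0.11. The split over all probes was 426 higher and 256 lower, 545 and 116, and 808 and 103 under the 3 scalings. Against Fli1 cells of 24 hpf all 7 probes were lower, where 2.83% of all probes were lower and 5.37% higher, with hbae1.1 10.8-fold, hbae3 12-fold and 13.7-fold, hbbe1 11.4-fold at scan setting 45, alas2 3.11-fold, urod 3.52-fold and blvrb at least 5-fold lower.

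On each of the 7 probes the Flk array lay nearer to Fli1 cells of 18 hpf than to Fli1 cells of 24 hpf, and it did so under each of the 3 scalings. For blvrb the Flk and Fli1 18 hpf spots were both below background, so its nearness carries no measured value. The hbbe1 spot of Fli1 cells at 24 hpf was saturated at scan setting 55. Among all 7565 probes, 44%, 44.5% and 42% lay nearer to 18 hpf under these scalings. This is a description of 3 arrays, and the stage of the Flk sample stays as the labels give it.

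Fitted together, the 4 sorted arrays had higher mean signals than the 2 whole-embryo arrays on all 7 probes, but no difference passed after adjustment over all probes. By limma with Benjamini-Hochberg adjustment over the 7565 probes, none of the 7 passed an adjusted p of 0.05, whereas 5 of all probes rose (0.0661%) and 64 fell (0.846%). At an unadjusted p under 0.05, 4 of the 7 probes were higher, beside 592 higher and 802 lower among all. The difference was 2.03 for urod (log2, SE 0.585, adjusted p = 0.164) and 2.76 for alas2 (SE 0.880, adjusted p = 0.195). It was 3.01 for hbae1.1 (SE 1.33, adjusted p = 0.274), 3.0 and 3.13 on the hbae3 probes (SE 1.25 and 1.33, adjusted p = 0.259 and 0.265), 2.21 for hbbe1 with 3 of its 6 spots saturated (SE 1.2, adjusted p = 0.344), and 1.22 for blvrb (SE 1.1, adjusted p = 0.53). The SE was smallest for urod and alas2. On these probes all 4 sorted arrays exceeded both whole-embryo arrays under quantile normalization, but not with the authors' scaled values. In this fit stage adds to the spread inside each fraction, and p-values measure the spread between single arrays that mixes stage, line and array error.

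With the fit restricted to the 4 stage-matched arrays of Fli1 cells and whole embryos and with stage as a block, 5 of the 7 probes rose, where 0.423% of all probes rose and 1.23% fell. The differences were 3.23 for hbae1.1 (adjusted p = 0.0119), 3.23 and 3.22 for hbae3 (adjusted p = 0.0062 and 0.00427), 2.54 for alas2 (adjusted p = 0.0139) and 2.61 for urod (adjusted p = 0.00939) by limma. This fit has 1 residual degree of freedom beside 9.09 prior degrees of freedom, so most of its variance estimate comes from all probes together. With stage as a number over all 6 arrays and Flk cells at 18 hpf, alas2 (adjusted p = 0.0134) and the dimmer hbae3 probe (adjusted p = 0.0427) rose by limma, where 0.106% of all probes did, and with Flk cells at 24 hpf none of the 7 did. Without the whole-embryo array of 18 hpf the difference over the remaining 5 arrays was -0.17 for hbbe1 and -0.19 for blvrb, while hbae1.1, hbae3, alas2 and urod stayed higher in sorted cells without any 1 array. The difference was lowest without that whole-embryo array, at 0.93 for hbae1.1, 1.33 and 1.81 for hbae3, 1.67 for alas2 and 1.25 for urod, and the highest values over the arrays left out were 5.09, 4.67, 4.46, 3.86 and 2.81 in the same order.

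The other measured enzymes of heme synthesis showed smaller differences, and those past 2-fold were higher in Fli1 cells. Of 8 further genes of the pathway, 4 were on the array and measured. Values of these and of all listed genes below are given under quantile normalization alone. In Fli1 cells against whole embryos, 1 was 2-fold higher at 18 hpf and 2 at 24 hpf, and none was lower at either stage, each gene being read from its brightest probe. Among all probes 9.4% were higher and 13.4% lower at 18 hpf, and 4.06% and 8.62% at 24 hpf. The second enzyme of the pathway, alad, was 2.94-fold higher at 18 hpf and 2.09-fold at 24 hpf, with a signal of 8.81 and 9.72 in whole embryos, 10.36, 10.78 and 11.09 in Fli1 cells in order of stage, and 9.67 in Flk cells. At 24 hpf ferrochelatase, fech, exceeded the whole embryo at least 2.15-fold, with a signal of 8.67 and 8.45 in Fli1 cells at 24 and 28 hpf and 8.39 in Flk cells, and it was not above background on the other 3 arrays. The housekeeping first enzyme alas1 and the third enzyme hmbsa, hydroxymethylbilane synthase, stayed under 2-fold at both stages on the probe used for each, whereas another alas1 probe was at least 2.07-fold lower in Fli1 cells at 18 hpf. The median of these 4 genes was 0.39 at 18 hpf and 0.82 at 24 hpf on the log2 scale, beside -0.01 and 0.09 over all probes.

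Iron handling genes differed at 24 hpf through the ferritins. Of 23 listed genes of heme and iron transport, 9 were on the array and 7 were measured. On the brightest probe of each, none was 2-fold different in Fli1 cells against whole embryos at 18 hpf, while 1 dimmer probe of fth1a and 1 of fthl27 were below background in Fli1 cells there, with log2 differences of -1.11 and -1.07. At 24 hpf the iron storage genes fth1a, ferritin heavy chain, and fthl27, a ferritin heavy chain-like gene, were 4.19-fold and 2.89-fold higher and none was lower. The shares over all probes were 9.4% higher and 13.4% lower at 18 hpf, and 4.06% and 8.62% at 24 hpf. The fthl27 signal was 12.07 and 11.70 in whole embryos, 12.27, 13.24 and 10.91 in Fli1 cells at 18, 24 and 28 hpf, and 12.48 in Flk cells. It was thus 5.03-fold lower at 28 than at 24 hpf, a step in which urod was also lower, and its other 6 probes were lower as well. The third ferritin gene, fth1b, was not above background on any array. For fth1a another measured probe gave 1.04-fold at 24 hpf, so its probes disagree. None of the mitochondrial carrier slc25a28, the iron exporter slc40a1, the heme exporter flvcr1, the heme carrier slc48a1b and the iron-sulfur cluster gene glrx5 was 2-fold different at either stage, on the probe used for each, and a dimmer glrx5 probe gave 9.55 and 9.26 in whole embryos and was not above background in Fli1 cells.

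The other measured globins were under 2-fold at both stages. Of 16 listed genes 6 were on the array and 3 were measured, namely the globins hbaa1, hbba1 and hbba2 that the zebrafish adult expresses. None was 2-fold different in Fli1 cells against whole embryos at 18 or 24 hpf. Among all probes 9.4% were higher and 13.4% lower at 18 hpf, and 4.06% and 8.62% at 24 hpf. The hbaa1 signal was 10.27 and 10.73 in whole embryos, 10.52, 11.17 and 10.47 in Fli1 cells in order of stage, and 9.31 in Flk cells, on 1 probe, while its other probe was below background on all 6 arrays. Myoglobin (mb), neuroglobin (ngb) and cytoglobin (cygb1) were below background on all 6 arrays. Of 7 listed genes of heme breakdown and heme binding, only the hemopexin gene hpxa was on the array, and it was below background on all arrays, so blvrb had no measured partner.

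**Figure D5:**
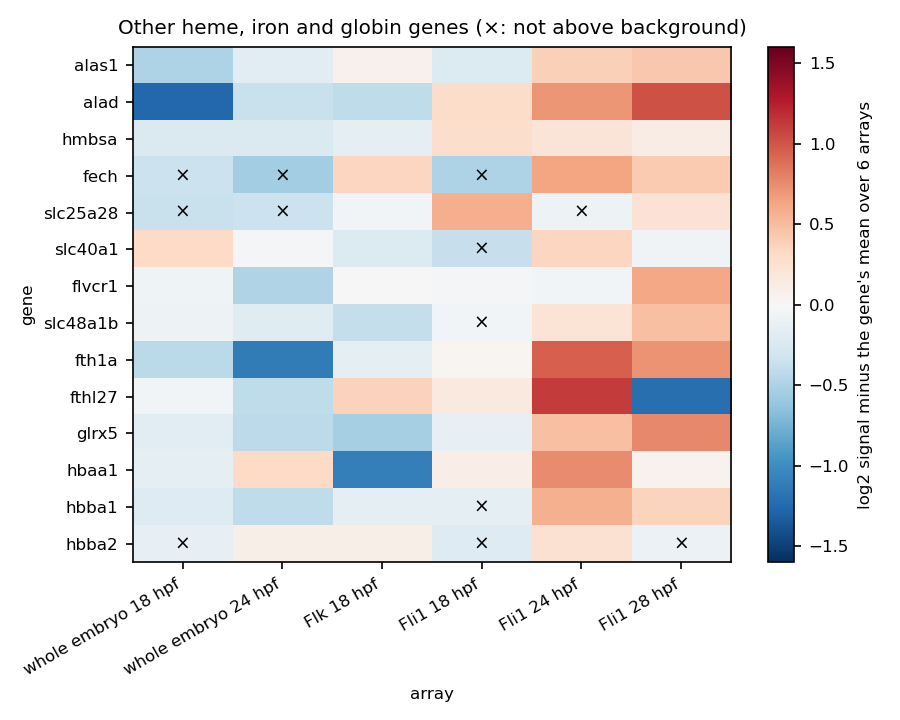
Signal of the 14 measured genes of heme synthesis, heme and iron transport and other globins on each array, as log2 signal minus the mean of that gene over the 6 arrays, with a cross where the probe was not above background. Red cells gather in the Fli1 columns of 24 and 28 hpf, alad runs from the deepest blue of its row in whole embryos at 18 hpf to the deepest red at 28 hpf, and fthl27 turns from red at 24 hpf to blue at 28 hpf.

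Markers of red cell precursors other than globins and heme enzymes gave a mixed picture. Of 16 listed erythroid genes 8 were measured, and 1 was 2-fold higher and 1 lower in Fli1 cells against whole embryos at each stage. Over all probes 9.4% were higher and 13.4% lower at 18 hpf, and 4.06% and 8.62% at 24 hpf. With 8 genes, counts of 1 are not read as different from these shares. The lower gene was tmod4, a tropomodulin that caps actin filaments, with a signal of 8.43 and 9.51 in whole embryos. In Fli1 cells it gave 8.51 at 24 hpf, a fold of 2.01, and was not above background at 18 and 28 hpf. At 18 hpf the fold is therefore only a lower bound of 1.3. The erythroid master factor gata1a was 1.34-fold and 1.58-fold higher at 18 and 24 hpf. Its signals in whole embryos, 8.14 and 8.12, lay close to the background limit, so the size of these folds is uncertain. The gene lmo2, a partner factor of blood and vessel precursors, was 2.78-fold higher at 18 hpf. A dimmer lmo2 probe, above background on all 6 arrays, was 1.85-fold higher there. The carbonic anhydrase cahz, an enzyme of red cells, had a signal of 9.26 and 8.61 in Fli1 cells at 24 and 28 hpf and was not above background on the other 4 arrays, which made it at least 2.33-fold higher at 24 hpf. The summed level of the 8 genes was 3162 and 3130 in whole embryos and 4362 to 5487 in the sorted arrays. This sum includes spots not above background, with 6 and 5 genes above it in whole embryos and 3 in Fli1 cells at 18 hpf. Its largest part was tal1 in Fli1 cells at 28 hpf (signal 11.59) and klf17 in Flk cells (10.53). Another tal1 probe gave 8.89 in Fli1 cells at 28 hpf and 9.965 and 10.052 in whole embryos. From 24 to 28 hpf in Fli1 cells, 1 of the 8 genes was 2-fold higher and 3 were lower. Among all probes 7.36% were higher and 11.5% lower in that step. Of 19 listed endothelial genes 3 were measured. Of these the receptor genes kdrl and tek were at least 1.87-fold and at least 1.49-fold higher at 18 hpf and 1.6-fold and 2.69-fold at 24 hpf, and fli1 itself was above background on the Flk array alone. The summed endothelial level was 779 and 780 in whole embryos and 1264 to 1812 in the sorted arrays. None of the 3 genes was above background in whole embryos at 18 hpf and 2 were at 24 hpf, so 779 is a sum of background-level spots.

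Markers of other cells that a sort or a whole embryo could hold were set beside the same arrays. The 6 measured myeloid genes had a summed level of 3397 and 7909 in whole embryos at 18 and 24 hpf, 4263, 15139 and 20054 in Fli1 cells in order of stage, and 4026 in Flk cells. Most of the sum in Fli1 cells at 24 and 28 hpf came from lyz, with signals of 13.44 and 13.70. Against whole embryos at 18 hpf, 2 of the 6 were 2-fold higher in Fli1 cells and 1, nccrp1, lower. At 24 hpf 1 was higher and none lower, beside the shares of all probes given above. The 8 epidermis genes summed to 79634 and 111059 in whole embryos and 10581 to 19227 in the sorted arrays, and the 5 yolk and liver genes to 11922 and 25905 against 1226 to 1511. On each sorted array 5 of the epidermis genes and 2 of the yolk and liver genes were above background. In whole embryos the brightest epidermis probe used was that of krt5, saturated on both arrays with signals of 15.93 and 15.46. The 5 skeletal muscle genes summed to 3122 and 13992 in whole embryos and 4105 to 5372 in the sorted arrays, and the 4 neural crest genes to between 1401 and 2203 on all arrays. These sums include spots not above background. Only 1 muscle gene was above it in Fli1 cells at 18 hpf, and 2 neural crest genes were in whole embryos at each stage. The defining neural crest factors sox10 and foxd3 were not above background on any array. The part of these cell types in the globin and heme values was not tested.

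The genes most like the set were found by the Pearson correlation of their log2 signal over the 6 arrays with the mean profile of the 6 member genes. That profile, centred on its mean, was -3.15 and -0.01 in whole embryos at 18 and 24 hpf, 0.18, 1.74 and 2.06 in Fli1 cells in order of stage, and -0.82 in Flk cells. Of 507 named genes with a range of at least 2 log2 units, lyz and alad were nearest (r = 0.972 each). They were followed by the clathrin adaptor subunit ap2m1a (0.964), the endosomal GTPase rab5aa (0.960), eef2l2 (0.935) and the checkpoint gene rad1 (0.934). The rab5aa probe was above background on 2 arrays, and ap2m1a, rab5aa and eef2l2 have 4, 3 and 4 other probes that were not compared. The lyz signal, from a gene of myeloid cells, was 7.58 in whole embryos at 18 hpf, where it was not above background, and 11.53 at 24 hpf, 10.28, 13.44 and 13.70 in Fli1 cells and 9.86 in Flk cells. With 6 arrays that differ in stage and fraction these correlations are a description.

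The authors' deposited table gives each sorted array as a ratio to the mean of both whole-embryo arrays, and this choice of reference matters for the set. For hbbe1 that mean holds the capped reading of the 24 hpf whole embryo, so its ratios rest on a reading that is a lower bound. In the authors' deposited table, Fli1 cells at 18 hpf had ratios of 0.617 for hbae1.1, 0.818 and 1.21 for hbae3, 0.576 for hbbe1, 1.46 for alas2 and 1.6 for urod. Against the whole embryo of the same stage, the authors' scaled values give 9.10 for hbae1.1, 6.69 and 7.22 for hbae3, 8.27 for hbbe1 and 3.97 for urod, and no ratio is given for alas2, which was below background there. The hbae1.1 and hbbe1 values of Fli1 cells at 18 hpf thus lie below the mean of both whole embryos and above the whole embryo of 18 hpf at once, between scaled values of 1.90 and 54.1 for hbae1.1 in whole embryos at 18 and 24 hpf. For Flk cells the authors' deposited table gives 0.466 for hbae1.1, 0.587 and 0.722 for hbae3, 0.412 for hbbe1, 1.79 for alas2 and 1.73 for urod. For Fli1 cells at 24 hpf it gives ratios from 3.54 for blvrb to 13.2 on the dimmer hbae3 probe, and at 28 hpf from 1.43 for urod to 13.2 on that probe, all above 1.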

How the data were processed

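The members and gene lists were chosen with earlier results of these data known. Single-colour arrays of 6 samples were used, grouped by sample title. The authors deposited spot and background intensity at scan settings 45, 55 and 65, a background-subtracted intensity joined over the settings and the same divided by 1 number per array, per the file headers. A flag score per spot and ratios of sorted samples to the mean of both whole-embryo samples were also deposited by the authors. Scanner, image software, genome build and the meaning of the flags are not given in the sources used here. The deposited value table equals the scaled intensity, linear and with genes not centred. Its column medians were 0.801 (whole embryo, 18 hpf), 0.816 (24 hpf), 0.922 (Fli1, 18 hpf), 0.856 (24 hpf), 0.922 (28 hpf) and 0.869 (Flk).

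Intensities at setting 55 went through normexp (offset 50) and quantile normalization in limma 3.58.1 (R 4.3.3). Flagged probes (68) were dropped and saturated spots (65535) kept, which left 7565 zebrafish probes with a signal above background somewhere. RefSeq's gene table named 8376 of 14067 probes (5022 symbols). Pathway and marker genes were read from their brightest probe under quantile normalization alone, the member probes singly.

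Pairs of arrays were compared by log2 difference, counted at 2-fold or more where the brighter spot was above background and not both were saturated. A fold is a lower bound where the dimmer spot was below background, then replaced by the lowest measured signal of its array if that was higher, or where the brighter was saturated. The 4 sorted and 2 whole-embryo arrays were compared with lmFit and eBayes and Benjamini-Hochberg adjustment at 0.05. The procedure was run on simulated data with independent normal noise, which hold no stage or line effects, so the run does not cover those. Named genes were the members, list genes that differed 2-fold in a stage-matched Fli1 comparison, and the 6 genes with the most similar profile. Any other gene was named after its values were seen. Alternatives were scaling to the 75th percentile, the authors' scaled values (log2 after a floor of 0.1), setting 45, the joined intensity, no background correction, stricter filters, 1 row per gene, stage terms and leaving out each array. The number of arrays limits the precision.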

Additional observations from a re-analysis of the deposited data

How the results depend on the processing

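Replicate numbers could pair nothing, since each condition had 1 array, and arrays were paired by stage alone in the stage-matched fit. For the 7 probes 294 differences between pairs of arrays were recomputed and set beside the values reported. They include those among probes above background on all 6 arrays, a filter that cannot change a difference, so these count as unmoved by design. Of the 294, 200 stayed within the control-spot SD of the value reported, 88 moved further and 6 that had been past 2-fold turned. Among the others, 11 under 2-fold changed sign, namely hbae1.1, the brighter hbae3 probe and blvrb in Fli1 cells at 28 against 24 hpf under both other scalings, blvrb in Flk cells against whole embryos of 24 hpf, and alas2 (both scalings), urod (authors' scale) and blvrb (scan setting 45) in Flk against Fli1 cells of 18 hpf. The 6 that turned were the Flk differences against whole embryos of 24 hpf in place of 18 hpf for hbae1.1 (-1.25), hbae3 (-0.97 and -0.83) and hbbe1 (-1.67, saturated at 24 hpf, and -1.79 at scan setting 45), where the number of member probes 2-fold higher went from 6 to 0, and the dimmer hbae3 probe at 28 against 24 hpf with 75th percentile scaling (-0.0083) and the authors' scaled values (-0.00036). In that step the number of member probes higher was 0 under both these scalings and 1 among probes above background on all 6 arrays, which keep 5 of the 7, and that filter left 3 higher from 18 to 24 hpf in Fli1 cells. Flk cells had 0 member probes lower than Fli1 cells of 18 hpf under both scalings and 7 lower than those of 24 hpf.

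By limma, sorted against whole embryo, the number of all probes that rose was 3 at scan setting 45, 3 among probes above background on all arrays, 3 with 1 row per gene, 32 in the stage-matched fit with a stage block (5 of them members), and 8 or 2 with stage as a number and Flk cells at 18 or 24 hpf (2 and 0 members). The number that fell was 115 with 75th percentile scaling, 130 with the authors' scaled values and 12 among probes above background on all arrays. Leaving out 1 array gave 0 to 10 that rose and 12 to 64 that fell, the lowest without the Fli1 array of 18 hpf, and no member passed. The difference of hbbe1 then ran from -0.17 to 4.59 and that of blvrb from -0.19 to 2.63, turning without the whole-embryo array of 18 hpf. Of 115 recomputed limma differences of the members, 106 kept direction and side of the threshold, 7 passed it in addition and 2 turned. Causes were not tested. Saturation of hbbe1 and the low signal of blvrb limit what these arrays show.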
